A study of Mus musculus with 9 samples.

Results

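The genes examined here are 38 mouse genes of glucose breakdown, lactate handling, the pentose phosphate pathway and the response to low oxygen, chosen by symbol. All 38 were found among the 15768 gene symbols measured in LLC1, the parental line, which derives from the Lewis lung carcinoma of the mouse, and in SCC1 and SCC2, subclones established from LLC1 by limiting dilution, each of which is 1 clone. Each line had 3 libraries of untreated cells with the genotype given as WT, grown in DMEM with 10% fetal bovine serum, and the subclones had been passaged 5 to 8 times. The labels name no change of oxygen or glucose, so the comparisons concern standing differences between lines in culture. Levels are in FPKM, which corrects the fragments counted on a gene for its length and for how deeply its library was sequenced, and ± is the SD over 3 libraries. Whether the 3 libraries stand for separate cultures is not in the labels, and the p-values therefore cover only the spread among these samples, which may be technical. In bulk RNA, fewer cells with a transcript and less transcript per cell cannot be told apart.

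Glycolysis turns glucose into pyruvate, which tumour cells often reduce to lactate and export even with oxygen present. The pentose phosphate pathway branches off at glucose 6-phosphate and supplies NADPH and ribose for nucleotides. Many glycolytic genes are targets of the hypoxia-inducible factors (HIF), whose alpha subunits are hydroxylated by prolyl hydroxylases when oxygen is present, recognised by the VHL protein and degraded.

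Recovered whole fragments numbered 17094808 to 19398657 per library. Across genes (not independent replicates), Spearman's correlation ran from 0.992 to 0.993 within a line and from 0.977 to 0.984 between lines. Of 6 listed epithelial tumour markers 4 were measured. The epithelial keratins Krt8 and Krt18 were high in every line, with means of 113, 155 and 75.3 FPKM for Krt8 in LLC1, SCC1 and SCC2. The keratin Krt19 had only 1.4, 1.27 and 0.333 FPKM, and the epithelial cadherin Cdh1 was at 0.00853 FPKM or less. The tissue label is lung, but the alveolar surfactant gene Sftpc had a mean of at most 0.0222 FPKM and the lung lineage factor Nkx2-1 of at most 0.00509. Of 7 listed lung markers 4 were measured, and 3 of these were under 1 FPKM in all libraries. The highest, Ager, had means of 0.892, 0.551 and 1.13 FPKM in LLC1, SCC1 and SCC2. Of 10 listed leukocyte markers 5 were measured, and 4 of these were under 1 FPKM in all libraries. Their summed level was 4.07 to 4.91 FPKM in LLC1, 8.41 to 10.5 in SCC1 and 2.83 to 3.27 in SCC2, nearly all of it from Cd68, while the macrophage receptor Csf1r had a mean of at most 0.0182. Summed fibroblast markers were 9.07 to 10.2 FPKM in LLC1, 6.36 to 6.47 in SCC1 and 5.27 to 6.09 in SCC2, and summed endothelial markers did not exceed 0.096 in any library. The part of these marker levels in the results below was not tested.

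Of the 38 genes, those with a line mean of at least 5 FPKM were ranked by their log2 differences between the 3 lines. The largest lay in the lactate exporter Slc16a3 and in the minor isoenzymes Eno2 and Ldhb. The glucose transporter Slc2a1 passed in no comparison unless the median of the genes on each chromosome was first removed from each library. Per length, the most abundant glycolytic transcript in LLC1 was Eno1 at 1843 ± 3.65 FPKM, followed by Pgk1 at 1168 ± 12.8, Pkm at 1043 ± 7.7, Tpi1 at 863 ± 1.56 and Aldoa at 684 ± 4.46. The least abundant were Aldoc at 1.43 ± 0.0669 FPKM and the hypoxia marker Car9 at 0.889 ± 0.183. Of the 38 genes 37 had at least 1 FPKM in at least 3 libraries and were tested, Car9 being left out. Aldoc passed this filter through its LLC1 libraries alone. It was thus tested only because LLC1 was high, and its calls against LLC1 are no separate evidence.

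**Figure D1:**
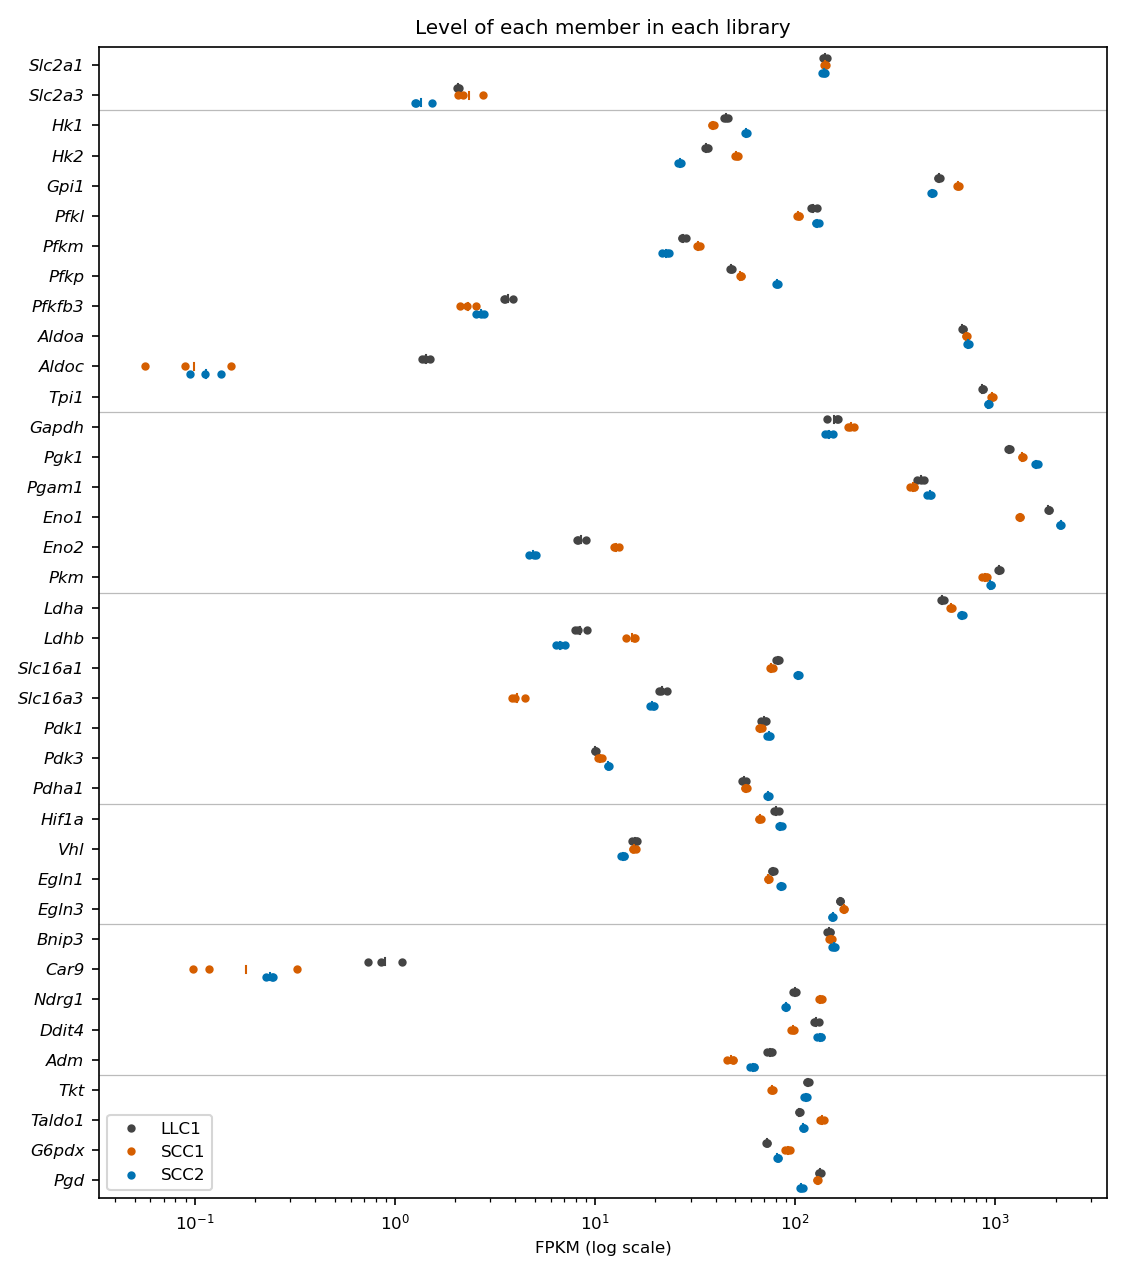
FPKM on a log axis of each of the 38 genes in each of the 9 libraries, with a dot per library, a tick at the mean of a line, and grey lines between functional groups. The libraries of a line lie close together for most genes, and Slc16a3 in SCC1, between 3.85 and 4.44 FPKM, stands far to the left of both other lines.

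In SCC1 against LLC1, 31 of the 37 tested genes passed an adjusted p of 0.05 (limma, Benjamini-Hochberg over all genes), which is 83.8% of them, beside 70.1% of all 10519 genes tested. Of these 16 were higher and 15 lower, where 39.2% of all genes were higher and 30.9% lower, and the median log2 change was 0.03, as it was over all genes. In SCC2 against LLC1, 33 passed, 18 higher and 15 lower (89.2%, beside 67.6% of all genes, 34.7% higher and 32.9% lower), with a median of 0.05 beside 0.01. SCC2 against SCC1 gave 34, with 20 higher and 14 lower (91.9%, beside 76.3% of all genes, 37% higher and 39.4% lower), and a median of 0.09. Without Aldoc, 30, 32 and 34 of 36 passed.

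Since most genes of the table passed, size says more than the count. In SCC1 against LLC1 5 of the 37 genes passed with at least a 1.5-fold fitted change, beside 6.54% of all genes. Slc16a3, Aldoc, Adm and Tkt were lower, beside 4.43% of all genes, and Ldhb was higher, beside 2.11%. In SCC2 against LLC1 there were 3, beside 5.74% of all genes, with Aldoc and Eno2 lower (4.09% of all genes) and Pfkp higher (1.65%). In SCC2 against SCC1 there were 6, beside 11.9% of all genes, with Slc16a3, Eno1 and Pfkp higher (5.26% of all genes) and Eno2, Ldhb and Hk2 lower (6.64%). At 2-fold there remained 2, 1 and 3, beside 1.91%, 1.58% and 3.35% of all genes, and Aldoc was among them in both comparisons with LLC1. With Aldoc left out, 4, 2 and 6 of 36 passed at 1.5-fold (11.1%, 5.56% and 16.7%) and 1, 0 and 3 at 2-fold. The median absolute log2 change of the 37 genes was 0.23, 0.17 and 0.31 in the 3 comparisons, and that of all genes 0.17, 0.16 and 0.23. The 3 libraries of one line were all above or all below those of the second line for 31, 33 and 35 of the 37 genes, beside 72.3%, 70.7% and 77.9% of all genes.

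**Figure D2:**
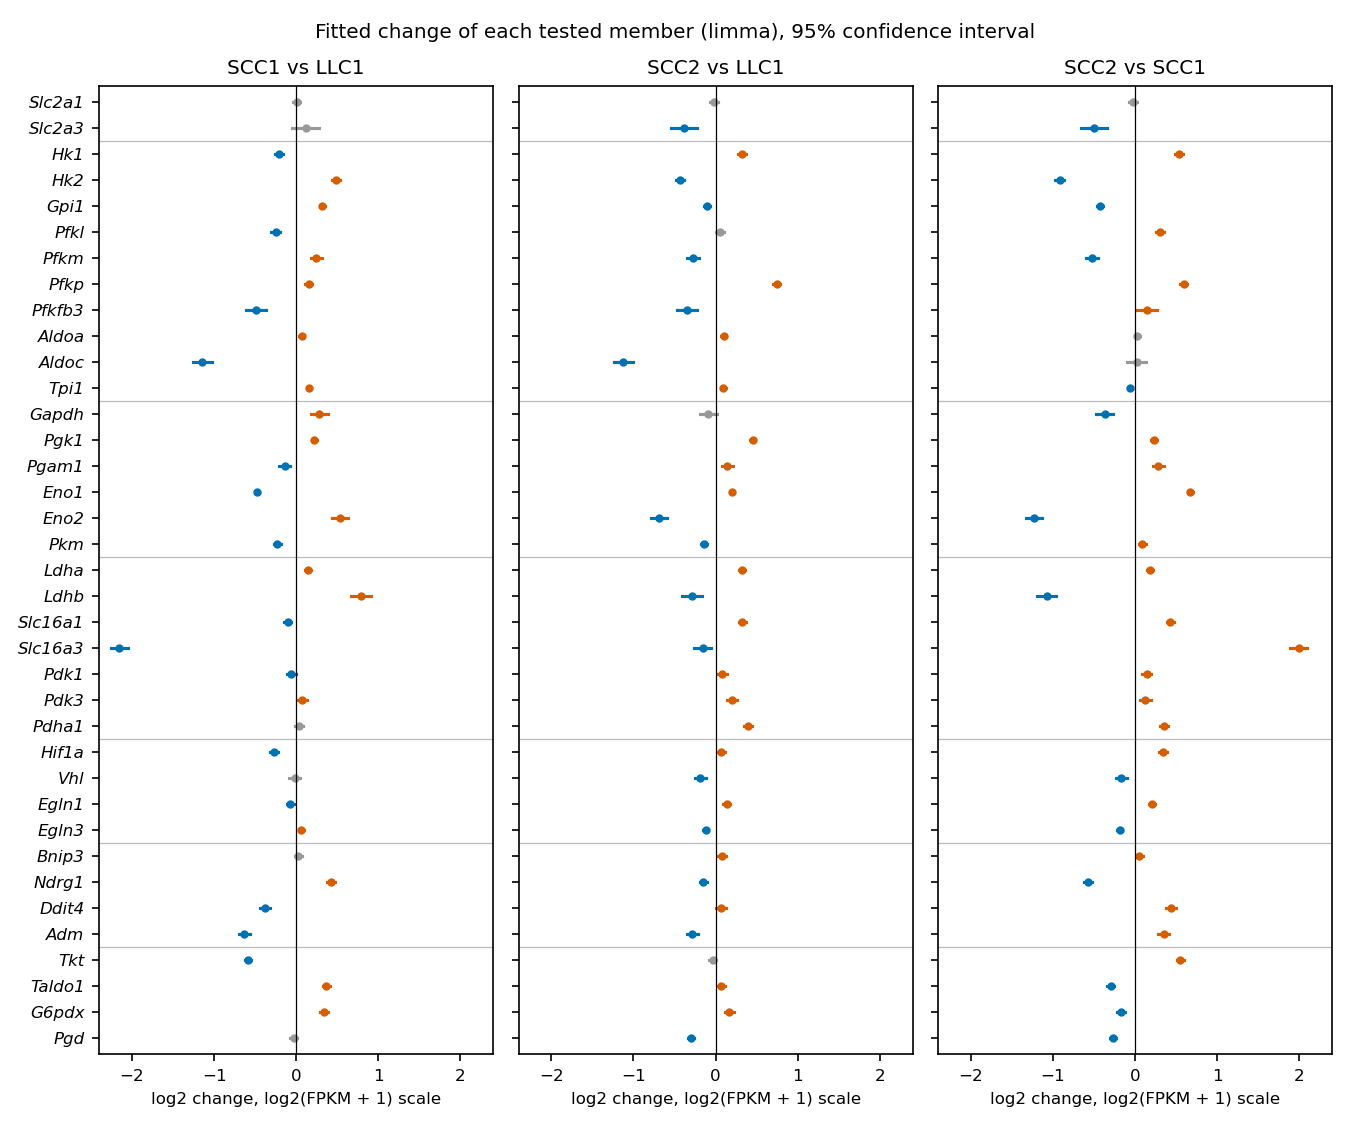
Fitted log2 change on the log2(FPKM + 1) scale with its 95% confidence interval for each tested gene in the 3 comparisons, in orange where higher, in blue where lower and in grey where the adjusted p missed 0.05. Slc16a3 is the farthest point in SCC1 against LLC1 (-2.15) and in SCC2 against SCC1 (2.00), while Slc2a1 stays near 0 in all 3 panels.

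The promoters of 3 of these genes are shown because HIF binds DNA at the core letters ACGTG or GCGTG and the genes differed in size and direction between the lines. Adm follows from the naming rule, and Slc16a3 and Hk2 were added after their values were seen. Each sequence holds the 250 bases before a RefSeq start (build GRCm38.p6), read 5′ to 3′ on the strand of the gene. Every ACGTG or GCGTG, or its reverse complement CACGT or CACGC, is in capitals. Adm lies at chr7:110627407-110627656 on the plus strand, Slc16a3 at chr11:120948817-120949066 on the plus strand, and Hk2 at chr6:82774455-82774704 on the minus strand. The Slc16a3 window lies inside the annotated gene, which begins at 120948484, so the start used for it is not the outermost one.
Adm: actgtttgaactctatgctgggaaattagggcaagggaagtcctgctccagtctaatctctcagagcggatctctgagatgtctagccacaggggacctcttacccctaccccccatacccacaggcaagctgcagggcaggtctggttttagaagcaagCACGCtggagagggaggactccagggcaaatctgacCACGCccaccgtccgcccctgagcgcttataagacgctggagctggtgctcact
Slc16a3: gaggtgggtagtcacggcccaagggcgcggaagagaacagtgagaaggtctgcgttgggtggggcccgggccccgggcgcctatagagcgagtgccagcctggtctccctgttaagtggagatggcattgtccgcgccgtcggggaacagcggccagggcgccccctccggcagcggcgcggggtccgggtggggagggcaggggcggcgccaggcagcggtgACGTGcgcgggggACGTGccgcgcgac
Hk2: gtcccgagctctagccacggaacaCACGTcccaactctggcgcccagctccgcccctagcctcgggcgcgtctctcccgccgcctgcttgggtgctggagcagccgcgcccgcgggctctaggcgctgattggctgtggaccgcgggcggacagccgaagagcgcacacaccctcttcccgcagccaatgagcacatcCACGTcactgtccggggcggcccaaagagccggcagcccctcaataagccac

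Each of the 3 promoters held 2 matches, and none of the 6 lay in CACGTG, the E-box that contains ACGTG and binds other factors. RefSeq promoters were found for 36 of the 38 genes, 50 promoters in all, of which 40 (80%) held the core in these 250 bases. The share was 57.9% over 10854 promoters of tested genes and 38.6% over all 32851 promoters. The core contains the dinucleotide CG, whose median number was 14 in promoters of the 38 genes, 16 in those of tested genes and 6 in all promoters. CACGTG stood in 12% of the promoters of the 38 genes and in 8.54% of those of tested genes. A match describes letters and not binding.

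The main glucose transporter missed the threshold in all 3 comparisons, but passed in those with SCC1 once chromosome medians were removed. Slc2a1, the widely expressed form of growing cells, had 138, 140 and 144 FPKM in the LLC1 libraries, 143, 140 and 141 in SCC1, and 141, 140 and 136 in SCC2. The groups overlapped in every comparison, and SCC1 against LLC1 gave a log2 change of 0.0056 (95% interval -0.0402 to 0.0513, limma adjusted p = 0.823). With the median change of the genes on its chromosome 4 removed, it was higher in SCC1 than in LLC1 (0.34, adjusted p = 9.19e-08) and lower in SCC2 than in SCC1 (-0.32, adjusted p = 9.95e-08). SCC2 against LLC1 still missed the threshold (0.02, limma adjusted p = 0.438). Slc2a3, a high-affinity transporter, was far lower, with 2.06, 2.04 and 2.1 FPKM in LLC1, 2.2, 2.74 and 2.06 in SCC1 and 1.53, 1.26 and 1.28 in SCC2. It was lower in SCC2 than in LLC1 (log2 change -0.38, limma adjusted p = 5.84e-04), with no overlap between their libraries. The SCC1 library at 2.74 stood above the rest, and SCC1 did not pass against LLC1 (adjusted p = 0.181).

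The hexokinases, which trap glucose in the cell as glucose 6-phosphate, differed in their balance more than in their sum. Hk2, the inducible form, had 36.1, 36.5 and 35.4 FPKM in LLC1, 51, 51.5 and 50 in SCC1, and 26.5, 25.9 and 26.9 in SCC2. Hk1, the widely expressed form, had 45.2, 44.3 and 46.1 FPKM in LLC1, 38.4, 39.3 and 38.6 in SCC1, and 56.6, 57.5 and 56 in SCC2. The lines did not overlap for either gene. Hk2 rose in SCC1 (log2 change 0.49, limma adjusted p = 7.15e-09) and fell in SCC2 (-0.43, 2.47e-08), while Hk1 fell in SCC1 (-0.21, 4.46e-06) and rose in SCC2 (0.32, 1.81e-07). Between the subclones Hk2 differed by -0.92 (SE 0.0237) and Hk1 by 0.54 (SE 0.0223). As a share of the summed FPKM of the pair, Hk2 made up 44.4 ± 0.879% in LLC1, 56.7 ± 0.298% in SCC1 and 31.8 ± 0.713% in SCC2, while the sum was 81.2, 89.6 and 83.1 FPKM. Hk1 lies on chromosome 10, whose tested genes had a median log2 change of -0.19 in SCC1. With chromosome medians removed the fall of Hk1 in SCC1 did not pass (-0.02, adjusted p = 0.447), and its difference between the subclones was 0.25.

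**Figure D3:**
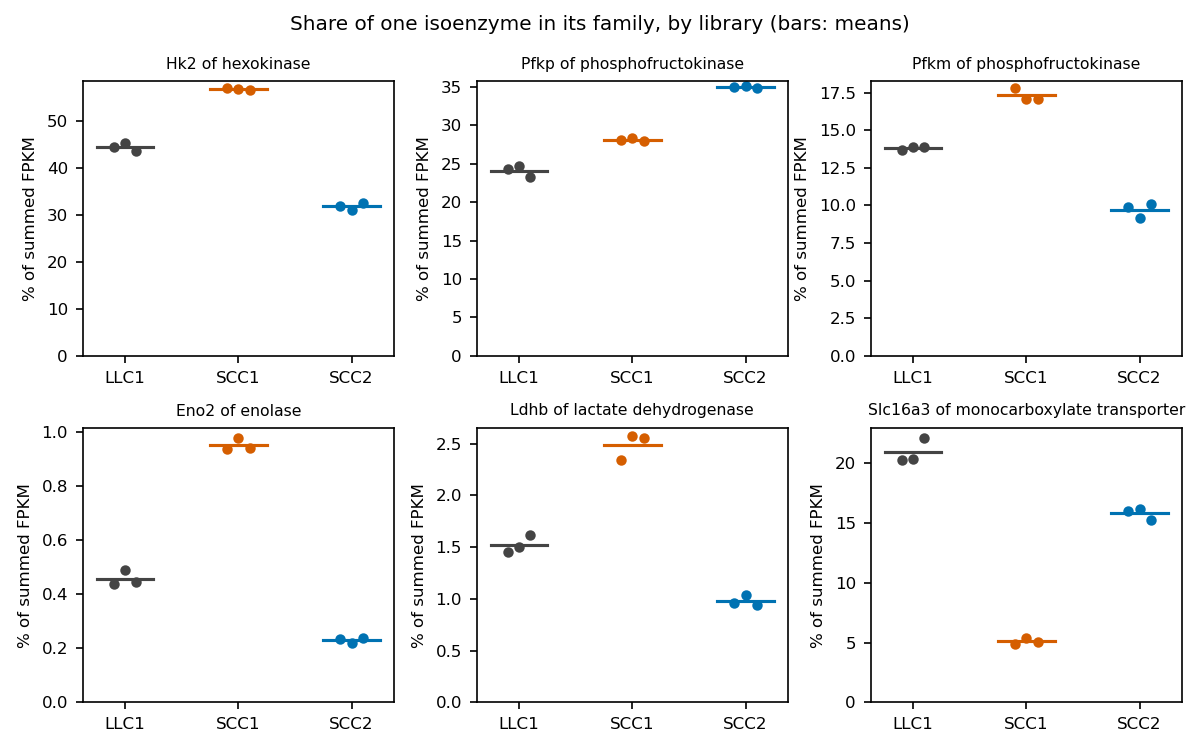
Percent of the summed FPKM of a gene family taken by 1 member in each of the 9 libraries, with a dot per library and a bar at the mean of a line, on axes that start at 0. SCC1 is highest and SCC2 lowest for Hk2, Pfkm, Eno2 and Ldhb, SCC2 is highest for Pfkp, and SCC1 is lowest for Slc16a3.

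Phosphofructokinase, the committed step of glycolysis, is built from liver (Pfkl), muscle (Pfkm) and platelet (Pfkp) subunits. Pfkp had 47.9, 48.4 and 47.4 FPKM in LLC1, 52.7, 53.7 and 53.5 in SCC1, and 80.7, 82.4 and 80.1 in SCC2. All SCC2 libraries were above all others, and the log2 change in SCC2 against LLC1 was 0.75 (SE 0.0196, limma adjusted p = 8.60e-11). Pfkm had 27.1, 27.1 and 28.4 FPKM in LLC1, 33.5, 32.4 and 32.6 in SCC1, and 22.8, 21.5 and 23.3 in SCC2, and so rose in SCC1 (0.25) and fell in SCC2 (-0.28). Pfkl, the largest part of the family, had 122, 120 and 128 FPKM in LLC1, 102, 104 and 105 in SCC1, and 127, 131 and 127 in SCC2. It fell in SCC1 (-0.25, limma adjusted p = 2.29e-06), and its SCC2 libraries overlapped LLC1 (adjusted p = 0.063, and adjusted p = 0.0102 without LLC1 replicate 3). Pfkp made up 24.1 ± 0.697% of the family's summed FPKM in LLC1, 28.1 ± 0.182% in SCC1 and 35 ± 0.18% in SCC2. The sum was 199 FPKM in LLC1, 190 in SCC1 and 232 in SCC2.

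The medians of the chromosomes that carry the subunit genes also differed from 0. In SCC2 against LLC1 the median log2 change of tested genes was 0.35 on chromosome 13, where Pfkp lies, and -0.26 on chromosome 15, where Pfkm lies. With chromosome medians removed the change of Pfkp in SCC2 was 0.39 (adjusted p = 2.10e-08) and that of Pfkm -0.01 (adjusted p = 0.719). In SCC1 the change of Pfkm was then 0.09 (adjusted p = 0.0383) and that of Pfkl -0.06 (adjusted p = 0.0538). Exons of Pfkp overlap those of Pitrm1 on the opposite strand over 748 of 13401 annotated bases. The strand setting of the counting was not given in the sources used here.

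Gpi1, which converts glucose 6-phosphate to fructose 6-phosphate, rose in SCC1 from 521 ± 6.13 to 650 ± 5.4 FPKM (log2 change 0.32, limma adjusted p = 5.78e-09) and fell in SCC2 to 484 ± 4.93 (-0.11). Pfkfb3, whose product makes the phosphofructokinase activator fructose 2,6-bisphosphate, was low throughout and fell from 3.67 ± 0.213 FPKM to 2.32 ± 0.204 in SCC1 and 2.68 ± 0.128 in SCC2. Tpi1, which interconverts the triose phosphates, rose from 863 ± 1.56 to 962 ± 6.13 in SCC1 and 922 ± 5 in SCC2. Its change was 0.01 in SCC1 (adjusted p = 0.507) and 0.19 in SCC2 with chromosome medians removed.

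Aldolase, which splits fructose 1,6-bisphosphate, came almost wholly from Aldoa. Its libraries held 686, 687 and 679 FPKM in LLC1, 717, 712 and 722 in SCC1, and 727, 742 and 726 in SCC2, rises of 0.07 and 0.10 on the log2 scale (0.04 and 0.06 with chromosome medians removed). Under quantile normalization the smaller of these, in SCC1, did not pass (adjusted p = 0.144). Aldoc, the brain-type aldolase, had 1.36, 1.49 and 1.42 FPKM in LLC1, 0.0896, 0.0563 and 0.152 in SCC1, and 0.135, 0.112 and 0.0943 in SCC2. These rest on 70 to 78 fragments per LLC1 library, 3 to 8 per SCC1 library and 5 to 7 per SCC2 library. Both subclones were thus near the level of 3 fragments, which for Aldoc is 0.0538 to 0.061 FPKM.

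In lower glycolysis the 2 enolases moved against each other. Eno1, the ubiquitous enolase, had 1845, 1839 and 1846 FPKM in LLC1, 1320, 1334 and 1331 in SCC1, and 2116, 2118 and 2135 in SCC2. Eno2, the neuronal form, had 8.13, 9.05 and 8.24 FPKM in LLC1, 12.5, 13.2 and 12.6 in SCC1, and 4.93, 4.65 and 5.07 in SCC2. No libraries overlapped between lines for either. Eno1 fell in SCC1 (log2 change -0.47, SE 0.0113, limma adjusted p = 2.49e-11) and rose in SCC2 (0.20, adjusted p = 2.78e-08), while Eno2 rose in SCC1 (0.54, adjusted p = 6.48e-07) and fell in SCC2 (-0.69, adjusted p = 1.01e-07). Eno2 was 0.457 ± 0.0278% of the summed FPKM in LLC1, 0.95 ± 0.0226% in SCC1 and 0.23 ± 0.0093% in SCC2, so the sum followed Eno1, at 1852, 1341 and 2128 FPKM. Chromosome 4, which holds Eno1, had a median log2 change of -0.33 in SCC1. With chromosome medians removed Eno1 still fell in SCC1, by 0.14 on the log2 scale (adjusted p = 6.28e-07). Its near copy Eno1b had 25.3 to 26.8 FPKM in LLC1, 17.7 to 20.5 in SCC1 and 29.6 to 31.4 in SCC2, and reads may be divided between them.

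Pgk1, which makes the first ATP of the pathway, rose from 1168 ± 12.8 to 1362 ± 6.27 FPKM in SCC1 (log2 change 0.22) and to 1601 ± 22.9 in SCC2 (0.45, limma adjusted p = 2.78e-10). With the chromosome X medians of 0.17 and 0.23 removed along with the others, its changes were 0.06 (adjusted p = 0.00533) and 0.23 (adjusted p = 8.50e-08). Pgam1, the phosphoglycerate mutase, fell from 425 ± 17.7 to 386 ± 10.5 in SCC1 and rose to 470 ± 11.2 in SCC2, and neither change passed with chromosome medians removed (adjusted p = 0.0694 and 0.342). Pkm, which encodes the pyruvate kinase of most tissues, fell from 1043 ± 7.7 to 888 ± 23.8 in SCC1 (-0.23) and 946 ± 8.14 in SCC2 (-0.14). Its chromosome 9 had medians of -0.19 and -0.16, and with them removed neither fall passed (adjusted p = 0.0643 and 0.288). Under quantile normalization the value in SCC2 was 0.000. Gene totals do not tell the M1 and M2 splice forms of Pkm apart. Gapdh rose in SCC1 from 156 ± 10.8 to 190 ± 6.77 FPKM (0.28, limma adjusted p = 2.34e-04, and 0.13 with chromosome medians removed). In SCC2, at 147 ± 6.8, it missed the threshold (adjusted p = 0.126), but passed as lower without LLC1 replicate 3 (adjusted p = 0.00587). GENCODE held 77 other genes, 74 of them pseudogenes, that match the Gapdh transcript at 95% identity over 300 bases or more, so its level is uncertain.

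Slc16a3 had the largest change of the set on the log2(FPKM + 1) scale. As a ratio of mean FPKM Aldoc differed more, 14.3-fold between LLC1 and SCC1, at the few fragments given above. Slc16a3, which encodes the lactate exporter MCT4, had 20.8, 21.3 and 22.8 FPKM in LLC1, 3.85, 4.44 and 3.98 in SCC1, and 19.5, 19.6 and 18.8 in SCC2. SCC1 stood alone, with a mean 5.29-fold below LLC1 and 251 to 284 fragments per library. The log2 change in SCC1 was -2.15 (SE 0.0466, limma adjusted p = 1.11e-11), which ranked 20 by absolute size among the 10519 genes, and SCC2 exceeded SCC1 by 2.00 (adjusted p = 1.00e-11). In SCC2 against LLC1 the fall was 0.16 on the log2 scale (adjusted p = 0.0102, and 0.0549 with chromosome medians removed). The median log2 change of chromosome 11 in SCC1 was 0.17. The 10 nearest tested genes, 5 on each side, had log2 changes in SCC1 from -0.31 in Ogfod3 to 0.38 in Gps1, with 0.23 in Ccdc57 and 0.08 in Csnk1d directly beside it. None of the 10 was as low as Slc16a3. The promoter printed above holds both of its core matches within the last stretch before the start used there, which lies inside the annotated gene.

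Slc16a1, which encodes the related transporter MCT1, had 81.8, 83.1 and 80.3 FPKM in LLC1, 75.4, 77.6 and 75 in SCC1, and 103, 102 and 104 in SCC2. It fell slightly in SCC1 (log2 change -0.10, limma adjusted p = 7.28e-04) and rose in SCC2 (0.33, adjusted p = 7.71e-08). The summed FPKM of both transporters was 103 ± 0.913 in LLC1, 80.1 ± 1.69 in SCC1 and 122 ± 0.693 in SCC2, of which Slc16a3 was 20.9%, 5.11% and 15.8%. Bsg, whose product basigin carries both transporters to the cell surface, was 422 ± 5.57 FPKM in LLC1, 344 ± 9.62 in SCC1 and 427 ± 5.41 in SCC2, a fall of 0.29 in SCC1 on the log2 scale (limma adjusted p = 1.76e-07). Bsg lies on chromosome 10, whose tested genes had a median log2 change of -0.19 in SCC1. By its mean, each of the 3 transcripts Slc16a3, Slc16a1 and Bsg was lowest in SCC1.

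Lactate dehydrogenase interconverts pyruvate and lactate, with Ldha encoding the muscle and Ldhb the heart subunit. Ldha had 539, 537 and 554 FPKM in LLC1, 598, 593 and 605 in SCC1, and 688, 675 and 671 in SCC2. It rose in both (log2 changes 0.14 and 0.32, limma adjusted p = 1.39e-05 and 1.59e-08). Ldhb had 7.92, 8.18 and 9.14 FPKM in LLC1, 14.3, 15.6 and 15.8 in SCC1, and 6.65, 7.07 and 6.4 in SCC2. Its libraries did not overlap between any of the lines, with a rise of 0.79 in SCC1 (SE 0.0543, adjusted p = 1.40e-07) and a fall of 0.29 in SCC2 (adjusted p = 5.81e-04) on the log2 scale. The share of Ldhb in the summed FPKM was 1.52 ± 0.0907% in LLC1, 2.48 ± 0.124% in SCC1 and 0.979 ± 0.0492% in SCC2.

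Further genes act where pyruvate enters mitochondria. Pdha1, a catalytic subunit of pyruvate dehydrogenase, was 55.4 ± 1.28 FPKM in LLC1, 56.8 ± 0.715 in SCC1 and 73 ± 0.84 in SCC2, a rise of 0.39 in SCC2 (limma adjusted p = 2.74e-08). With chromosome medians removed its rise in SCC2 was 0.17 (adjusted p = 5.09e-05), and in SCC1 it passed as lower (-0.13, adjusted p = 3.30e-04). Its exons overlap those of Map3k15 on the opposite strand over 603 of 3734 bases. Pdk1 and Pdk3 encode kinases that switch pyruvate dehydrogenase off. Pdk1 had 71.2, 70.3 and 67.6 FPKM in LLC1, 68.3, 66.4 and 65.7 in SCC1, and 74, 72.5 and 75 in SCC2. Pdk3 had 10.1, 9.94 and 10 FPKM in LLC1, 10.6, 10.3 and 10.8 in SCC1, and 11.6, 11.6 and 11.7 in SCC2. In SCC1, where the Pdk1 libraries overlapped LLC1, both were close to the threshold (adjusted p = 0.0473 and 0.0497), and leaving out any of 7 libraries ended the call of Pdk1, such as LLC1 replicate 1 (adjusted p = 0.169), and any of 8 that of Pdk3, such as SCC1 replicate 3 (adjusted p = 0.16). The changes of Pdk1 were -0.16 in SCC1 and 0.13 in SCC2, and those of Pdk3 -0.10 and -0.03, with chromosome medians removed. The share of Pdk3 in their sum was 12.6%, 13.7% and 13.6%.

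The pentose phosphate genes did not move as one. Tkt, the transketolase of the non-oxidative branch, had 114, 117 and 115 FPKM in LLC1, 76.3, 75.3 and 77.7 in SCC1, and 111, 114 and 113 in SCC2. SCC1 lay below both other lines (log2 change -0.59 against LLC1, SE 0.0188, limma adjusted p = 2.43e-10), and SCC2 missed the threshold against LLC1 (adjusted p = 0.127, and 0.0025 as lower with chromosome medians removed). Taldo1, the transaldolase that works beside Tkt, instead rose in SCC1 from 105 ± 0.999 to 135 ± 3.35 FPKM (0.37, limma adjusted p = 2.07e-08). G6pdx, the NADPH-producing first enzyme, rose from 72.3 ± 0.579 to 91.9 ± 2.75 in SCC1 (0.34, and 0.17 with chromosome medians removed) and 81.5 ± 0.79 in SCC2 (0.17). Its rise in SCC2 did not pass with chromosome medians removed, where the value was -0.05 (adjusted p = 0.0626), chromosome X having a median of 0.23. Exons of G6pdx overlap those of Ikbkg on the opposite strand over 418 of 3080 bases. Pgd, the second NADPH-producing enzyme, fell in SCC2 from 132 ± 1.49 to 107 ± 1.54 FPKM (-0.30, limma adjusted p = 3.87e-08). In SCC1 it was 129 ± 0.735 (adjusted p = 0.13, passing as lower under quantile normalization, adjusted p = 0.0337, and median-of-ratios scaling, adjusted p = 0.0236), and with the chromosome 4 median of -0.33 removed its change there was 0.30 (adjusted p = 4.84e-08).

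The genes of HIF control varied within a narrow range. Hif1a, the oxygen-regulated subunit, was lower in SCC1 at 66.4 ± 0.666 FPKM than in LLC1 at 80.5 ± 1.96 (log2 change -0.27, limma adjusted p = 4.60e-07). At 84.2 ± 1.18 in SCC2 its rise of 0.07 did not pass without LLC1 replicate 1, LLC1 replicate 3 or SCC2 replicate 3 (adjusted p = 0.0548, 0.0743 and 0.0702). Vhl, the recognition subunit of the ligase that removes hydroxylated HIF, fell in SCC2 from 15.8 ± 0.47 to 13.8 ± 0.289 FPKM (-0.18, and -0.09 with chromosome medians removed) and was 15.7 ± 0.291 in SCC1 (adjusted p = 0.654, and 6.70e-04 as lower with chromosome medians removed). Of the prolyl hydroxylases, Egln1 had 76.4, 76.7 and 78.8 FPKM in LLC1, 73.2, 73.9 and 73.2 in SCC1, and 84.5, 84.3 and 85.9 in SCC2. Egln3, itself a HIF target, had 167, 167 and 168 FPKM in LLC1, 176, 175 and 174 in SCC1, and 153, 153 and 155 in SCC2. The pair moved in opposite senses, each with no overlap between lines, and Egln1 made up 31.6%, 29.6% and 35.6% of their sum. With chromosome medians removed neither the rise of Egln3 in SCC1 (adjusted p = 0.19) nor that of Egln1 in SCC2 (adjusted p = 0.0793) passed, and Egln1 in SCC1 was -0.14 in place of -0.07.

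Hypoxia-response targets changed in different directions. Adm, which encodes the vessel-dilating peptide adrenomedullin, had 76.5, 75.5 and 72.7 FPKM in LLC1, 49, 45.8 and 49 in SCC1, and 59.6, 62.2 and 62 in SCC2. It fell in both subclones (log2 change -0.63, SE 0.0305, limma adjusted p = 6.51e-09 in SCC1, and -0.29, adjusted p = 6.52e-06 in SCC2), with no overlap between lines. Ndrg1, a stress-responsive gene of differentiation, had 97.4, 100 and 101 FPKM in LLC1, 136, 134 and 131 in SCC1, and 88.8, 89.9 and 90 in SCC2. It rose in SCC1 (0.42, limma adjusted p = 5.53e-09, and 0.26 with chromosome medians removed) and fell in SCC2 (-0.15, adjusted p = 4.32e-05). The fall turned to a rise of 0.11 (adjusted p = 3.43e-04) with the chromosome 15 median of -0.26 removed.

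Ddit4, whose product REDD1 restrains mTORC1, had 125, 124 and 131 FPKM in LLC1, 95.4, 98.9 and 97.1 in SCC1, and 135, 128 and 134 in SCC2. Its fall in SCC1 (log2 change -0.38, limma adjusted p = 2.22e-07, and -0.18 with chromosome medians removed) had no overlap, while the SCC2 libraries overlapped LLC1 (adjusted p = 0.0485). That call in SCC2 was lost without 7 of the 9 libraries in turn, LLC1 replicate 3 and SCC2 replicate 2 being the exceptions, and with chromosome medians removed the value was -0.02 (adjusted p = 0.517). Bnip3, a mitophagy receptor, was 148 ± 2.67 FPKM in LLC1, 151 ± 2.4 in SCC1 and 156 ± 2.69 in SCC2. It rose by 0.08 in SCC2 on the log2 scale (limma adjusted p = 0.00526) and did not pass with chromosome medians removed (adjusted p = 0.105). Exons of Bnip3 overlap those of Gm45507 on the opposite strand over 504 of 2265 bases. GENCODE also held 5 other genes that match the Bnip3 transcript at 95% identity over 300 bases or more. Car9, the membrane carbonic anhydrase used as a hypoxia marker, was near the detection limit, with 0.729, 0.85 and 1.09 FPKM in LLC1, 0.117, 0.098 and 0.323 in SCC1, and 0.226, 0.243 and 0.246 in SCC2. These are 30 to 41 fragments per library in LLC1, 4 to 13 in SCC1 and 9 to 10 in SCC2, and Car9 was not tested with the other genes.

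Several of these genes share a chromosome, and chromosomes differed in their medians between lines. Chromosome 6 holds Slc2a3, Hk2, Tpi1, Gapdh, Eno2, Ldhb and Vhl, and its 513 tested genes had a median log2 change of 0.13 in SCC1 and -0.10 in SCC2 against LLC1. Hk2, Eno2 and Ldhb kept their direction and their call with chromosome medians removed, at 0.34, 0.39 and 0.64 in SCC1 and -0.33, -0.59 and -0.19 in SCC2 (adjusted p from 1.49e-07 to 0.0121). Adm, Taldo1, Gpi1 and Ldha lie on chromosome 7, with medians of 0.03 and 0.04, and Tkt on chromosome 14, with 0.03 and 0.05. After this removal 29, 23 and 33 of the 37 genes passed in the 3 comparisons. The share of all tested genes that passed in SCC1 against LLC1 also fell, to below 70.1%. For the remaining comparisons the share over all genes under this setting is not given here. Their counts therefore cannot tell a loss particular to these genes from a loss over all genes. Copy number was not measured, and its part in these differences was not tested.

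**Figure D4:**
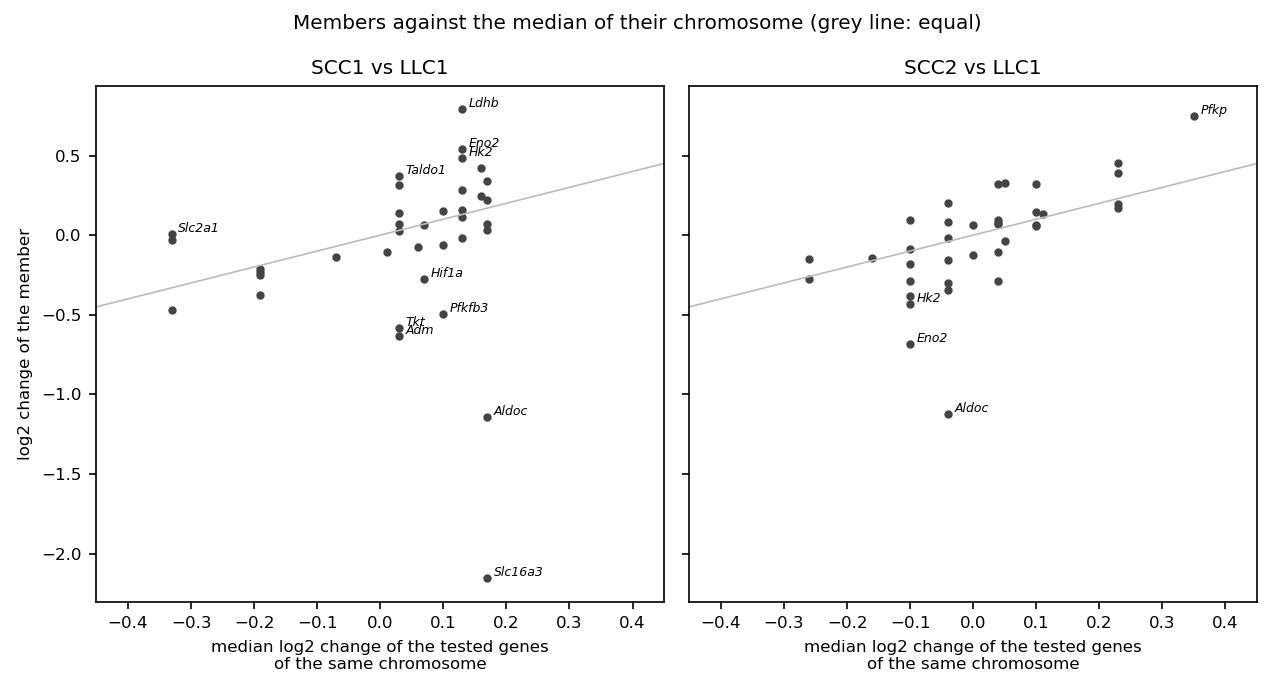
Log2 change of each tested gene (vertical) against the median log2 change of the tested genes of its chromosome (horizontal) for each subclone against LLC1, with a grey line where the values are equal. Slc16a3 lies far below the line in SCC1, whereas Pfkp in SCC2 is both on the chromosome with the highest median plotted (0.35) and above the line. Genes over 0.33 from the line are named.

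Other genes of the same pathways, from 6 lists written by function, were counted beside these. Over all genes 39.2% rose and 30.9% fell in SCC1 (70.1% in all), and 34.7% rose and 32.9% fell in SCC2 (67.6%). Of 44 further glycolytic and gluconeogenic genes 20 were tested, of which 8 rose and 9 fell in SCC1, and 5 rose and 6 fell in SCC2 (85% and 55% called, medians 0.01 and 0.03, beside 0.03 and 0.01 for all genes). Pck2, the mitochondrial enzyme that makes phosphoenolpyruvate from oxaloacetate, was 46.6 ± 2.14 FPKM in LLC1, 28.5 ± 0.651 in SCC1 and 79.8 ± 1.24 in SCC2. Its log2 changes were -0.69 and 0.76 (limma adjusted p = 4.70e-09 and 2.70e-09). Pcx, pyruvate carboxylase, which makes that oxaloacetate, was 10.3 ± 0.134, 4.33 ± 0.172 and 10.1 ± 0.055 FPKM, and fell in SCC1 by 1.08. G6pc3, a ubiquitous glucose 6-phosphatase, was 37.5 ± 1.72, 56.7 ± 1.65 and 28 ± 0.276 FPKM.

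Of 18 genes of pyruvate and lactate handling 13 were tested, with 2 higher and 5 lower in SCC1 (53.8% called, beside 70.1% of all genes) and 5 higher and 4 lower in SCC2 (69.2%, beside 67.6%). In SCC1 this became 0 higher and 4 lower with chromosome medians removed, where the share of all genes called also fell. Of the other kinases of pyruvate dehydrogenase, named after their values were seen, Pdk2 (1.46 ± 0.233, 1.19 ± 0.0771 and 0.459 ± 0.0853 FPKM in LLC1, SCC1 and SCC2) fell in SCC2 by 0.75 on the log2 scale (limma adjusted p = 2.51e-06). Pdk4 (2.47 ± 0.043, 1.39 ± 0.131 and 2.48 ± 0.256) fell in SCC1 by 0.54 (limma adjusted p = 8.49e-06). The pyruvate dehydrogenase phosphatase Pdp1 (7.14 ± 0.386, 5.65 ± 0.256 and 9.26 ± 0.488 FPKM in LLC1, SCC1 and SCC2) and the subunit Pdhb (37.7 ± 1.62, 34.2 ± 0.646 and 44.6 ± 0.732) fell in SCC1 and rose in SCC2. Of 14 further pentose phosphate genes 9 were tested, with 6 higher and 2 lower in each subclone (88.9% called, beside 70.1% and 67.6% of all genes, medians 0.11 and 0.17). In SCC1 this became 2 higher and 2 lower with chromosome medians removed, where the share of all genes called also fell. H6pd, the glucose 6-phosphate dehydrogenase of the endoplasmic reticulum, was 14 ± 0.169, 8.33 ± 0.361 and 13.1 ± 0.254 FPKM, and Pgls, the lactonase after G6pdx, 123 ± 2.71, 109 ± 3.15 and 139 ± 2.79. Glycogen genes numbered 14 tested of 21, with 9 higher and 2 lower in SCC1 (78.6% called, median 0.14) and 6 higher and 4 lower in SCC2 (71.4%, median 0.08), near the 70.1% and 67.6% of all genes. Among them the branching enzyme Gbe1 was 27.7 ± 1.02, 38 ± 0.668 and 26.3 ± 0.475 FPKM, and the phosphorylase Pygb 41.3 ± 0.575, 51.1 ± 0.67 and 36.2 ± 0.72.

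Of 20 regulators of HIF 16 were tested, with 4 higher and 7 lower in SCC1 and 8 higher and 6 lower in SCC2 (68.8% and 87.5% called, beside 70.1% and 67.6% of all genes, medians -0.05 and 0.08). These became 2 higher and 5 lower in SCC1, and 6 higher and 2 lower in SCC2, with chromosome medians removed. The share of all genes called in SCC1 also fell under that setting, and the share in SCC2 is not given here. The fewer calls in SCC2 therefore cannot be told from a loss over all genes. Cul2, the scaffold of the VHL ligase, was 17 ± 0.715, 23 ± 0.632 and 15.7 ± 0.551 FPKM, and the coactivator Ep300 23.8 ± 0.822, 27.6 ± 0.522 and 20.6 ± 0.281. Of 55 further hypoxia-response genes 41 were tested. In SCC1 17 rose and 20 fell (90.2% called, median -0.02), and in SCC2 12 rose and 21 fell (80.5%, median -0.07). Between the subclones 16 of the 41 passed with at least a 1.5-fold change, 5 higher and 11 lower in SCC2, beside 11.9% of all genes. Plod1, which hydroxylates collagen lysines, was 84.5 ± 2.89, 17.7 ± 0.85 and 54.2 ± 1.39 FPKM, with log2 changes of -2.19 and -0.63 (limma adjusted p = 1.77e-12 and 3.18e-08). Ero1a, the oxidase of disulfide formation, went the other way in SCC1 at 149 ± 0.397, 211 ± 3.19 and 130 ± 0.614 FPKM, and Anxa1, an annexin, was 668 ± 4.6, 482 ± 2.46 and 750 ± 6.16.

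**Figure D5:**
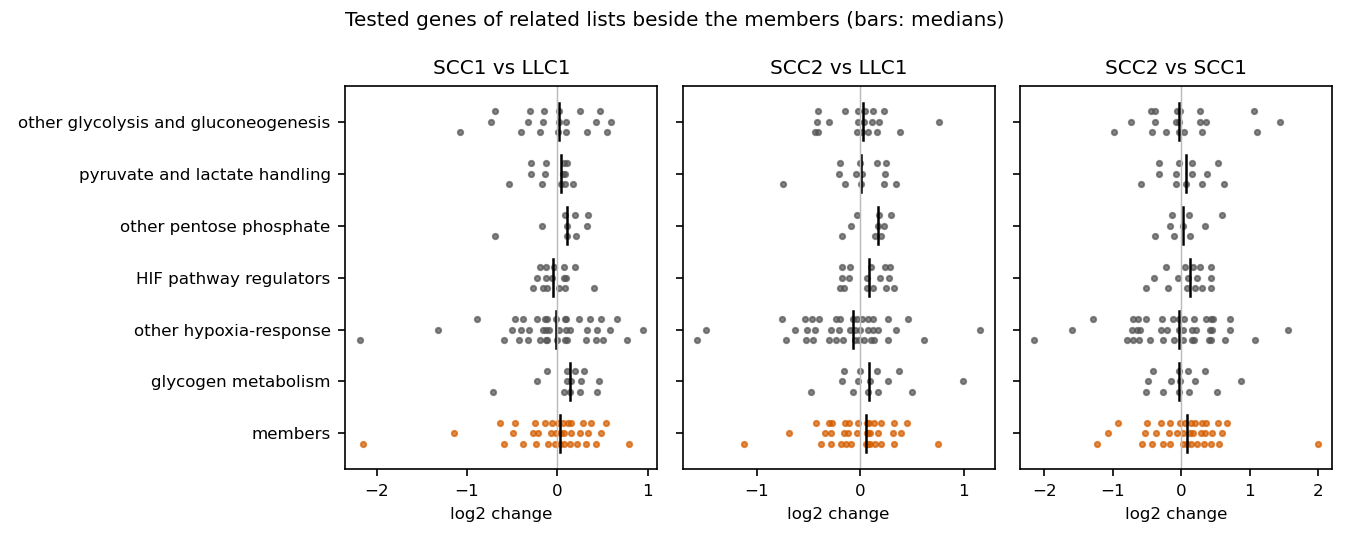
Log2 changes of the tested genes of 6 related lists (grey) and of the 37 tested genes of the set (orange) in the 3 comparisons, with a dot per gene and a bar at the median. All medians lie within 0.17 of 0, while single genes such as Plod1 in SCC1 reach -2.19.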

How the data were processed

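LLC1, SCC1 and SCC2 contributed 3 RNA-seq libraries each. The deposited values are FPKM, which the authors computed with cufflinks after trimming with Trimmomatic and alignment with hisat2, per the series' design text. Builds GRCm38 and mm10 are named in the submitters' processing notes, while tool versions and strand setting were not given in the sources used here. The labels' protocols name a SMARTER mRNA kit and the design text a TruSeq stranded mRNA kit. An FPKM value depends on all other transcripts sequenced with it.

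Genes with at least 1 FPKM in at least 3 of 9 libraries (10519) were tested on log2(FPKM + 1) with limma (version 3.58.1, R version 4.3.3), using the trend and robust options of eBayes and all lines in one fit. This scale understates changes of low genes. All p-values are two-sided. They were adjusted by the Benjamini-Hochberg method across the 10519 genes, and 0.05 was the threshold. Whole fragments were worked back from the steps of FPKM, up to a factor common to a gene: 12270 of 12270 genes above 0 in all libraries came out whole within 0.001. Both procedures were tested on simulated data. In the chromosome alternative, the median deviation of the tested genes of a chromosome was removed from each library. Chromosomes came by symbol from RefSeq (GRCm38.p6, 15661 of 15768 symbols matched), and exon overlaps and near copies from GENCODE. The genes and lists were chosen with earlier results of these data known. Values in every library are given for the 10 of the 38 genes with the largest change at a line mean of at least 5 FPKM. They are also given for isoenzyme families and for some others, and up to 3 genes are named per related list. Summaries and figures used Python 3.11.15.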

Additional observations from a re-analysis of the deposited data

Results flagged for a closer look

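Genes that passed in both subclones against LLC1 but in opposite directions, and that also passed in the direct comparison of SCC2 with SCC1 (limma), numbered 15 of 37 tested (40.5%), beside 2357 of 10519 genes (22.4%). Both comparisons with LLC1 share its libraries, and the direct difference is the difference of the 2 changes by which the genes were chosen, so it describes the size of the gap and is no separate support. The log2 difference of SCC2 from SCC1 was 0.54 for Hk1, -0.92 for Hk2, -0.42 for Gpi1, -0.52 for Pfkm and 0.28 for Pgam1. It was 0.68 for Eno1, -1.22 for Eno2, -1.08 for Ldhb, 0.43 for Slc16a1 and 0.14 for Pdk1. It was 0.34 for Hif1a, 0.21 for Egln1, -0.18 for Egln3, -0.57 for Ndrg1 and 0.44 for Ddit4. Some of the 15 rest on calls close to the threshold. Pdk1 in SCC1 and Ddit4 in SCC2, whose libraries overlapped LLC1, each lost the call without any 1 of 7 libraries. Hif1a in SCC2 lost it without any 1 of 3. For Hk1, Pfkm, Pgam1, Hif1a, Egln1, Egln3 and Ddit4 the call in 1 or both subclones against LLC1 was lost with chromosome medians removed, and for Ndrg1 the direction in SCC2 turned. The direct difference was then 0.25 for Hk1, -0.10 for Pfkm, 0.10 for Pgam1, 0.38 for Eno1, 0.29 for Pdk1, -0.15 for Ndrg1 and 0.16 for Ddit4. With 3 libraries per line, no search for single outlying libraries was made.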

How the results depend on the processing

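The counts of genes passing stayed within 1.5 times the reported ones under all alternatives: 28 to 31 for SCC1 against LLC1 (reported 31), 23 to 34 for SCC2 against LLC1 (33) and 32 to 35 for SCC2 against SCC1 (34), the lowest of the second with chromosome medians removed. The share of all genes called also moved. In SCC1 against LLC1 it ran from 51.7% without a filter to 73.8% at a filter of 5 FPKM in at least 3 libraries. At that filter 28 of 34 of these genes passed, so the counts do not share 1 denominator. For the other 2 comparisons the share over all genes is not given here. Deviations of same-numbered libraries had correlations of -0.068 to 0.089, and those of differently numbered libraries -0.070 to 0.067. With 3 libraries per line these values cannot show that the replicate number pairs nothing. With the replicate block the counts were 30, 32 and 34, Pdk3 in SCC1 and Ddit4 in SCC2 being lost. Direction turned as follows. In SCC1 against LLC1, Slc2a1 was -0.027 under quantile normalization, -0.012 under median-of-ratios scaling, -0.007 without LLC1 replicate 1 and -0.003 without SCC1 replicate 1, within -0.007 to 0.022 over the libraries left out in turn. Under quantile normalization Pdha1 was -0.024 and Bnip3 -0.020. With chromosome medians removed Slc2a3 was -0.031, Pdk3 -0.096, Pdha1 -0.132, Bnip3 -0.003 and Pgd 0.299. In SCC2 against LLC1 with chromosome medians removed, Slc2a1 was 0.020, Pfkl -0.035, Gapdh 0.012, Pkm 0.025, Pdk3 -0.026, Ndrg1 0.115, Ddit4 -0.022 and G6pdx -0.055, and Pkm was 0.000 under quantile normalization. In SCC2 against SCC1, Aldoc was -0.023 under quantile normalization and -0.009 without SCC1 replicate 2 (-0.009 to 0.054 over the libraries left out in turn), Tpi1 0.020 under quantile normalization, and with chromosome medians removed Tpi1 was 0.183 and Vhl 0.076. The cause was not tested. Depth limits Aldoc and Car9, at 3 to 13 fragments per library in the subclones.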
